A study of Sus scrofa with 12 samples.

Results

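Transcripts of 10 genes that hepatocytes use to make plasma proteins were counted in 12 libraries of pig muscle. The genes are ALB, TF, AHSG, FGG, APOC3, HRG, HPX, AMBP, TTR and GC, which make up 10 of the 20741 features in the whole-genome count tables. They were chosen by their counts in these libraries, of which 6 of 12 carry their transcripts, so the difference between those 6 libraries and the other 6 is a description here and was not tested. All 10 matched 1 Ensembl gene ID each, and all 10 passed the filter on low counts. The series names water holding capacity of meat as its subject, and drip is the fluid that seeps out of meat on storage. Muscle came from 6 animals labelled high drip (replicates 1 to 3 female, replicates 4 to 6 male) and 6 labelled low drip (replicates 1 to 3 female, replicates 4 to 6 male), aged 167 to 189 days. All 12 animals carry the same tissue label, and no breed, muscle, genotype or treatment is given in the labels used here. Replicate numbers follow the order of the records, and each number stands for 1 animal.

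Hepatocytes are the main source of most proteins dissolved in blood plasma. They secrete carriers for fatty acids, iron, haem, thyroid hormone and vitamin D, the fibrinogen chains that form clots, protease inhibitors, and apolipoproteins that direct lipid transport. Their genes share a set of liver-enriched transcription factors, among them HNF4A and the CEBP family, and mature muscle fibres are not known as a main site of their expression.

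Total counts per library lay between 8009627 and 12622043 with a median of 9749100. The 6 libraries with ALB over 10 CPM (counts scaled to a common library total over all features) held 9348488 to 12622043 counts, and the other 6 held 8009627 to 10149717. Animals with ALB over 10 CPM were 172 to 181 days old (median 172.5) and the others 167 to 189 days old (median 180), and the part of age and depth in the split was not tested. Muscle genes were abundant in all 12 libraries, and 11 of them, among which ACTA1, MYL1 and ENO3, together took 21.1 to 25.0% of counts in the libraries with ALB over 10 CPM and 21.5 to 25.1% in the others. Whole-genome tables were given to animals by the number each table carries. For 9 animals this was also the recorded table, while for 3 females (high drip replicate 2 and low drip replicates 1 and 2) the recorded table bears another animal's number. Taken by number, 737 to 745 of the 770 counts shared with the animal's own region table were identical in each of the 12 animals, and the recorded tables of those 3 females shared 123 to 136. None of the 10 genes lies in the region tables. CYP2E1, a liver cytochrome, does, and its region count equalled that of the numbered table in 12 animals and that of the recorded table in 10.

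ALB, which encodes serum albumin, the main carrier of fatty acids in plasma, split the libraries. It was at 317 CPM in high drip replicate 2, 55.6 CPM in low drip replicate 5, 39.3 CPM in low drip replicate 6, 30.9 CPM in high drip replicate 1, 30.7 CPM in high drip replicate 3 and 25.6 CPM in high drip replicate 4. In the other 6 libraries it was at 2.49 CPM in low drip replicate 4, 1.998 CPM in high drip replicate 5, 1.52 CPM in low drip replicate 1, 0.756 CPM in low drip replicate 2, 0.394 CPM in high drip replicate 6 and 0.327 CPM in low drip replicate 3. The nearest libraries on either side of the 10 CPM limit were thus high drip replicate 4 and low drip replicate 4, 10.3-fold apart, and high drip replicate 2 stood 5.69-fold above the next library. The 6 libraries over the limit are called the ALB-carrying libraries from here on.

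**Figure D1:**
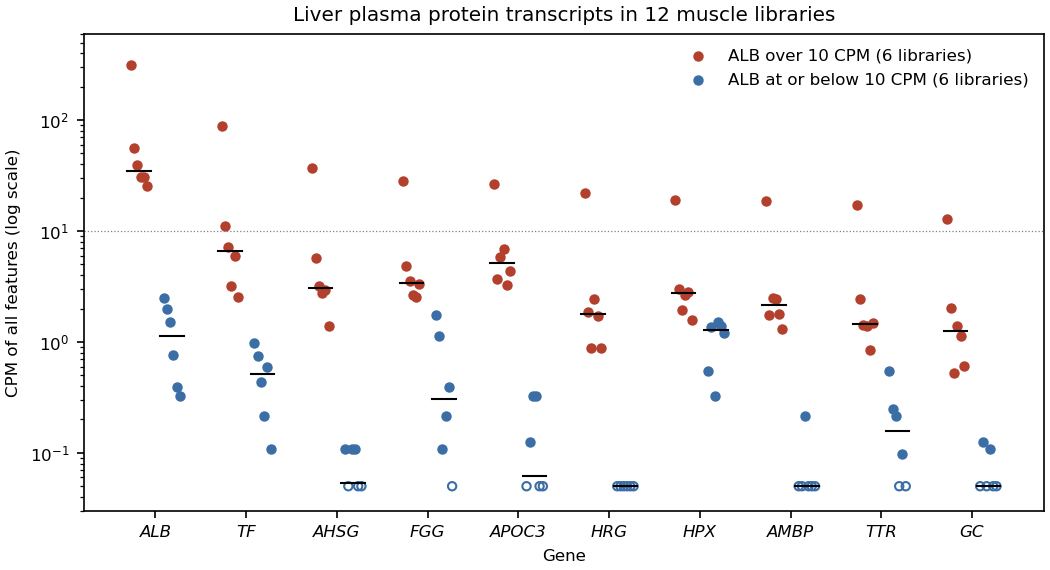
CPM of each of the 10 genes (log scale) in the 6 libraries with ALB over 10 CPM and the 6 others, with 1 point per library, open circles for 0 counts and bars for group medians; the dotted line marks 10 CPM. For every gene the lowest ALB-carrying library lies above the highest of the other libraries, by 10.3-fold for ALB and 1.04-fold for HPX, and 1 library, high drip replicate 2, stands above the rest.

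For all 10 genes the ALB-carrying libraries and the others did not overlap. Over the 15836 features with a count, 44 (0.278%) had all 6 ALB-carrying libraries above the other 6, and 46 (0.29%) had them below. The genes were chosen for this pattern, so nothing is read from their count.

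Among the other carriers, TF encodes transferrin, which moves iron in plasma. TF lay between 2.54 and 88.3 CPM in the ALB-carrying libraries (median 6.600) and between 0.109 and 0.975 CPM in the others (median 0.512). The range was wide at the top, since high drip replicate 2 had 34.8 times the TF level of high drip replicate 4, against 12.3 times for ALB. The RefSeq annotation of assembly Sscrofa11.1 places a pair of adjacent genes named TF side by side, so reads of TF may have been split between copies and its counts are uncertain. HPX encodes hemopexin, which binds free haem. It had 1.57 to 19.0 CPM in the ALB-carrying libraries (median 2.76) and 0.325 to 1.51 CPM in the others (median 1.29). The groups nearly touched for HPX, with 18 counts in high drip replicate 4 and 14 counts each in low drip replicate 2 and high drip replicate 6. TTR encodes transthyretin, a carrier of thyroid hormone and of retinol with its binding protein, and had 0.854 to 17.1 CPM in the ALB-carrying libraries and 0 to 0.542 CPM in the others. GC encodes the vitamin D binding protein and had 0.528 to 12.9 CPM in the ALB-carrying libraries against 0 to 0.125 CPM. It was the lowest of the 10 by median in the ALB-carrying libraries, at 1.26 CPM.

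AHSG, AMBP and HRG encode plasma proteins that hold back mineral deposition, inhibit proteases or bind heparin and plasminogen. AHSG, which encodes fetuin-A, had 1.40 to 36.6 CPM in the ALB-carrying libraries (median 3.06) and at most 1 count in any other library. AMBP, the joint precursor of alpha-1-microglobulin and the protease inhibitor bikunin, had 1.31 to 18.5 CPM (median 2.13) and, in the others, 2 counts in all, both in low drip replicate 1. HRG, the histidine-rich glycoprotein, had 0.875 to 22.03 CPM (median 1.78) in the ALB-carrying libraries. It had 0 counts in each of the other 6 libraries, where 3 counts, the floor used for a count of 0, would be 0.296 to 0.375 CPM. Intervals and floors here cover counting error only. HRG also showed the largest step of the 10 from the first to the next library, with high drip replicate 2 at 8.95 times high drip replicate 1.

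FGG encodes the gamma chain of fibrinogen, and APOC3 encodes an apolipoprotein that slows the clearance of triglyceride-rich particles. FGG had 2.56 to 28.0 CPM in the ALB-carrying libraries (median 3.42) and 0 to 1.73 CPM in the others (median 0.305). Its gap was small because low drip replicate 4, with 16 counts, and high drip replicate 5, with 9, stood above the other 4, which had 0 to 4. APOC3 had 26.3 CPM in high drip replicate 2, 6.85 CPM in high drip replicate 1, 5.81 CPM in low drip replicate 6, 4.37 CPM in high drip replicate 4, 3.71 CPM in low drip replicate 5 and 3.23 CPM in high drip replicate 3. In the others it had 0 to 3 counts. APOC3 was the flattest of the 10 across the ALB-carrying libraries, with high drip replicate 2 at 3.84 times the next library and 8.15 times the lowest. Without high drip replicate 2 it was not, since the highest over the lowest of the remaining 5 libraries was 2.12 for APOC3, 1.89 for HPX and 1.88 each for FGG and AMBP.

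No transcript lengths were used here, and counts grow with transcript length. The order of the genes by count is therefore an order of counts and not of molecules. ALB ranked first in each ALB-carrying library, with a median of 58.2% of the summed counts of the 10 genes and a range of 54.1% (high drip replicate 2) to 60.4% (low drip replicate 5). Next by median share came TF (11.01%), APOC3 (7.39%), AHSG (5.18%), FGG (5.02%), HPX (3.45%), AMBP (3.26%), HRG (2.60%), TTR (2.54%) and GC (2.16%). Neighbours in this order were not separated, since their places changed from library to library. TF ranked between 2 and 4, APOC3 between 2 and 5, AHSG between 3 and 7, FGG between 3 and 6, and each of the last 5 fell to place 7 or lower in at least 1 library.

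The highest share of a gene over its lowest among the ALB-carrying libraries was 1.12 for ALB and 1.64 to 3.26 for the other 9, and counting error is wide for the scarce ones. TTR's exact 95% binomial interval held the share pooled over the ALB-carrying libraries (2.77%) in all 6, and the intervals of AHSG, FGG, HPX, AMBP and GC did so in all but 1. ALB fell outside its pooled share in 3 of 6 libraries and HRG in 2 of 6. TF did so in 4 of 6 and APOC3 in 5 of 6, and the pooled share leans on high drip replicate 2, which supplied most of the counts. TF made up 15.1% (95% interval 14.3 to 15.9) of the 10 genes' counts in high drip replicate 2, against 5.65% (3.84 to 7.97) in high drip replicate 1 and 5.88% (3.97 to 8.34) in high drip replicate 4. APOC3 ran the other way, with 4.49% (4.03 to 4.99) in high drip replicate 2 against 12.1% (9.41 to 15.1) in high drip replicate 1 and 10.1% (7.62 to 13.2) in high drip replicate 4. TF lay between these in low drip replicate 5 at 12.1% (10.1 to 14.3), high drip replicate 3 at 11.1% (8.64 to 13.99) and low drip replicate 6 at 10.9% (8.77 to 13.4). For APOC3, low drip replicate 5 was the lowest at 4.04% (2.90 to 5.46). The spread between repeat libraries of 1 animal was not measured, so how much of these differences comes from library making was not tested.

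**Figure D2:**
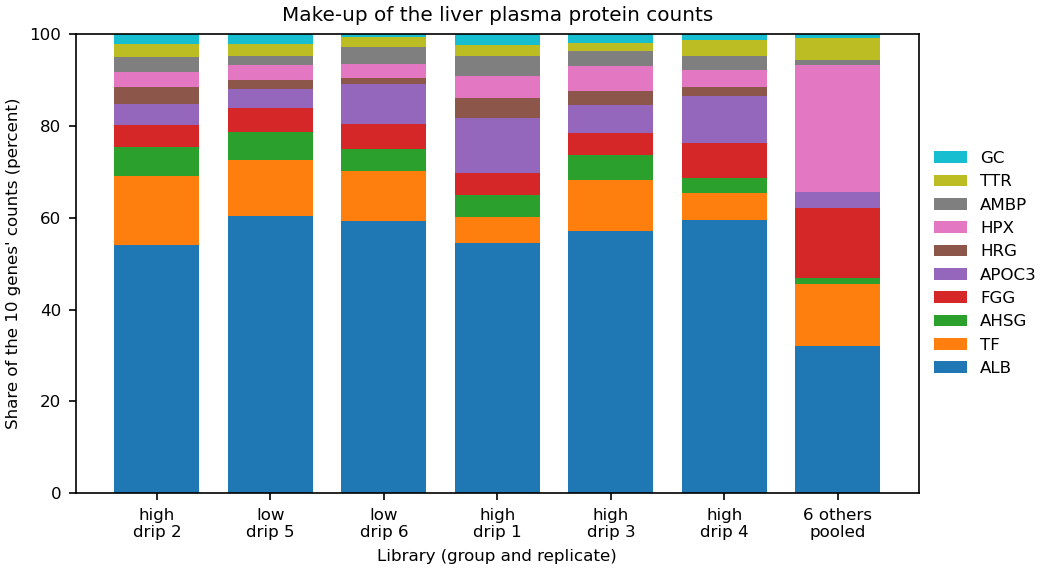
Share of each gene in the summed counts of the 10 genes (percent), for the 6 ALB-carrying libraries in order of ALB level and for the other 6 libraries pooled. ALB takes 54.1 to 60.4% in the ALB-carrying libraries and 32.1% in the pooled others, where HPX takes 27.8%; TF is widest in high drip replicate 2 and APOC3 in high drip replicate 1.

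Ratios between libraries were taken gene by gene against high drip replicate 2. Low drip replicate 5 held a median of 14.8% of the level in that library, from 8.43% (HRG) to 17.6% (ALB), with an SD over the 10 genes of 0.35 on the log2 scale. High drip replicate 1 held 10.3%, from 3.64% (TF) to 26.0% (APOC3), with an SD of 0.72. These libraries differ in how tightly the 10 genes keep 1 ratio. Low drip replicate 6 held 9.42%, from 4.00% (HRG) to 22.1% (APOC3), with an SD of 0.76. High drip replicate 3 held 8.98%, from 4.99% (TTR) to 14.97% (HPX), with an SD of 0.44, and high drip replicate 4 held 7.59%, from 2.87% (TF) to 16.6% (APOC3), with an SD of 0.79. APOC3 was the highest of the 10 ratios in 3 of the 5 libraries and TF or HRG the lowest in 4 of 5. From summed CPM the ratios were 15.7%, 9.70%, 11.3%, 9.19% and 7.37% in the same order of libraries, which places low drip replicate 6 above high drip replicate 1. The order of those 2 libraries therefore depends on the summary.

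**Figure D3:**
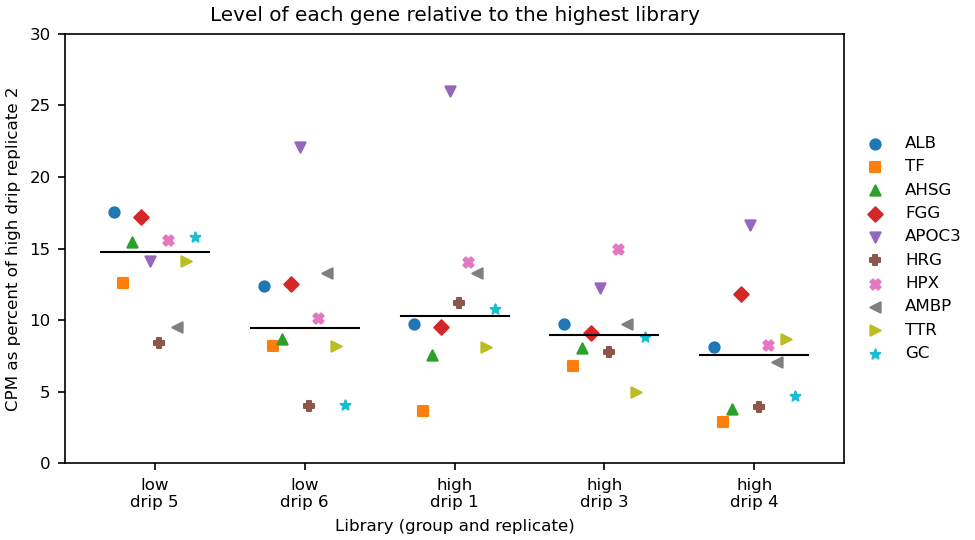
CPM of each of the 10 genes in 5 ALB-carrying libraries as a percent of its CPM in high drip replicate 2, with a bar at the median of the 10 genes. The medians run from 7.59% to 14.8%, and APOC3 lies above the other 9 genes in low drip replicate 6 and high drip replicates 1 and 4.

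Summed over the 10 genes, high drip replicate 2 held 585 CPM, or 0.0585% of its counts (95% interval 0.0572 to 0.0599). The next were low drip replicate 5 at 92.0 CPM, low drip replicate 6 at 66.2 CPM, high drip replicate 1 at 56.8 CPM, high drip replicate 3 at 53.8 CPM and high drip replicate 4 at 43.1 CPM (0.00431% of counts, 0.00394 to 0.00471). If every count of the 10 genes came from liver RNA, these percentages would be the least share of liver in each library, because liver RNA holds many other transcripts. No liver library is in the series, so a share of liver needs an assumed ALB share of liver counts. With ALB at 5% of liver counts, the ALB level would correspond to 0.633% liver counts in high drip replicate 2, 0.111% in low drip replicate 5, 0.0785% in low drip replicate 6, 0.0618% in high drip replicate 1, 0.0615% in high drip replicate 3 and 0.0513% in high drip replicate 4. With ALB at 1% the figures would be 3.17% for high drip replicate 2 and 0.256% for high drip replicate 4, and with ALB at 10% they would be 0.317% and 0.0256%. The other 6 libraries would hold 0.000654 to 0.00498% at the assumed 5%. In bulk RNA, fewer cells of a type and less RNA per cell cannot be told apart, and neither can liver RNA and the same transcripts made in another cell.

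In the 6 libraries with ALB at or below 10 CPM, the 10 genes summed to 1.64 to 6.39 CPM (median 3.24), which was 15 to 59 counts per library. That is 0.279 to 1.09% of the sum in high drip replicate 2, and for ALB alone 0.103 to 0.787%. The make-up of this low level was unlike that of the ALB-carrying libraries. Pooled over the 6, ALB took 32.1% of 10-gene counts, HPX 27.8%, FGG 15.3% and TF 13.4%, while AHSG, AMBP and GC took 1.44%, 0.957% and 0.957%. HPX had 21.4 to 367 counts per 100 ALB counts here, against 4.93 to 9.26 in the ALB-carrying libraries, and it kept 11 to 14 counts in 4 of the 6 libraries, of which low drip replicate 3 and high drip replicate 6 had 3 and 4 counts of ALB. FGG had 69.6 counts per 100 ALB counts in low drip replicate 4 and 56.3 in high drip replicate 5, but 7.14 in low drip replicate 1 and 0 in low drip replicate 3, against 8.33 to 12.97 in the ALB-carrying libraries. TF had 28.6 to 150 per 100 ALB counts in these 6 libraries, against 9.90 to 27.9 in the ALB-carrying ones, on 1 to 9 counts of TF. Its source was not tested.

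Genes of other liver functions were taken as lists chosen with earlier results of these data known. The lists are partial, since only genes whose symbol matched an ID could be used, called measured here. These were 10 of 20 listed for coagulation and fibrinolysis and 8 of 17 apolipoproteins and lipid carriers. They were 21 of 33 complement and acute phase genes and 28 of 45 hepatocyte enzymes, transporters and receptors. Among 10 measured genes of coagulation and fibrinolysis, 3 had all ALB-carrying libraries above the others, against 0.278% of all features with a count. These were FGB, the beta chain of fibrinogen (1.30 to 8.71 CPM against 0 to 0.217 CPM), PLG, the precursor of plasmin (0.759 to 12.0 CPM against 0 to 0.125 CPM), and PROC. SERPINC1, which encodes antithrombin, had 0.700 to 11.7 CPM against 0 to 0.999 CPM, and prothrombin (F2) had 0.528 to 5.70 CPM against 0.109 to 0.758 CPM, so both overlapped. Of 8 measured apolipoproteins and lipid carriers, 1 did not overlap, the retinol carrier RBP4 (1.99 to 9.35 CPM against 0.763 to 1.63 CPM). APOA1, which lies next to APOC3 in RefSeq's order, had 2.67 to 6.73 CPM against 1.87 to 4.55 CPM. Of 21 measured complement and acute phase genes, 3 did not overlap (C8B, CFB and CRP), while the more abundant C3, C4A, ITIH4 and AGT did. ITIH4 had 80.4 to 259 CPM in the ALB-carrying libraries and 48.4 to 211 CPM in the others, and AGT, the angiotensin precursor, had 10.8 to 32.1 CPM and 16.4 to 33.6 CPM.

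Of 28 measured enzyme, transporter and receptor genes of the hepatocyte, 2 gave the same split, against 0.278% of all features with a count. These were CYP2E1 and MAT1A, the liver form of methionine adenosyltransferase. CYP2E1 had 51, 21, 8, 12, 15 and 5 counts in the ALB-carrying libraries, taken in order of falling ALB, and 1 count in high drip replicate 5 and 0 in the other 5. ASL, CYP27A1, KHK and ASS1, the most abundant of this list, overlapped between the groups. BHMT and CPS1 overlapped too, with 144 and 141 counts summed over the ALB-carrying libraries and 1 and 2 over the others. Over the 28 genes the median log2 ratio of mean CPM, ALB-carrying to other libraries, was 1.76, with a small constant added to each mean. Of 12 transcription factors with an ID, 0 were separated. HNF4A, which drives many hepatocyte genes, had 23 counts in high drip replicate 2, 1 to 2 counts in the other ALB-carrying libraries and 0 to 2 counts in the rest. AFP, the fetal counterpart of albumin and its neighbour in RefSeq's order, had 0 counts in all 12 libraries.

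Markers of other cells and tissues that had an ID did not show the split. These lists were partial too. An ID was found for 8 of 16 markers of other liver cells, 11 of 19 of pancreas and 7 of 12 of kidney. It was found for 7 of 16 markers of intestine and stomach, 7 of 8 of lung and 5 of 15 of blood cells. None of the 8 measured markers of liver macrophages, sinusoidal endothelium and bile ducts was separated, and their summed level was 6.17 to 17.3 CPM in the ALB-carrying libraries and 7.12 to 16.1 CPM in the others. In this list OIT3 had 9 counts in high drip replicate 2 and 0 in the other 11 libraries. None of 11 pancreas markers was separated (1.51 to 5.76 CPM summed against 2.07 to 8.75 CPM), with PNLIP, CLPS, PRSS2 and PNLIPRP1 at 0 in all 12 libraries. The same held for 7 kidney markers (0.107 to 0.396 CPM against 0 to 0.327 CPM, with UMOD, AQP2 and SLC22A8 at 0), 7 intestine and stomach markers (3.04 to 8.00 CPM against 4.03 to 7.78 CPM, with SI, TFF3, APOBEC1 and MEP1B at 0) and 7 lung markers (3.70 to 7.13 CPM against 3.90 to 6.10 CPM, with SFTPB and SFTPD at 0). The 5 measured blood cell markers summed to 40.0 to 85.7 CPM against 19.5 to 87.5 CPM, most of it HBB, a globin chain of red cells (36.3 to 84.2 CPM against 19.2 to 85.6 CPM). The 11 muscle genes were not separated either.

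Liver transcripts outside the 10 genes were set against ALB within each ALB-carrying library. A set of 16 enzyme and receptor genes, picked after their values were seen as having at most 6 counts over the other libraries and at least 20 over the ALB-carrying ones, gave 17.2 counts per 100 ALB counts in high drip replicate 2 (exact 95% Poisson interval 15.9 to 18.5). It gave 17.4 (14.2 to 21.0) in low drip replicate 5, 11.2 (8.32 to 14.8) in low drip replicate 6, 22.5 (17.4 to 28.7) in high drip replicate 1, 14.5 (10.7 to 19.3) in high drip replicate 3 and 11.6 (8.04 to 16.2) in high drip replicate 4. The interval of low drip replicate 6 lay below those of high drip replicates 1 and 2. The interval of high drip replicate 4 lay below that of high drip replicate 1. Since the genes were picked for being high where ALB is high, nothing is read from how closely their sum follows ALB. BHMT, which remethylates homocysteine, had 128 counts in high drip replicate 2 (3.204 per 100 ALB counts, 2.67 to 3.81), 8 in low drip replicate 5, 7 in high drip replicate 1, 1 in high drip replicate 3 and 0 in low drip replicate 6 and high drip replicate 4, where the upper bounds were 0.827 and 1.26. TDO2, which starts tryptophan breakdown, had 50, 10 and 7 counts in high drip replicate 2, low drip replicate 5 and high drip replicate 1 and 0 counts in the other 3. High drip replicate 1 thus had 2.42 per 100 ALB counts (0.974 to 4.99) for each of BHMT and TDO2. FGB had 2.75 per 100 ALB counts in high drip replicate 2 and 2.34 in low drip replicate 5, against 4.94 to 6.05 in the other 4. Its intervals in low drip replicate 5 (1.28 to 3.92) and high drip replicate 3 (2.82 to 8.02) overlapped. APOC3 had 8.31 in high drip replicate 2 and 6.68 in low drip replicate 5, against 10.5 to 22.1 in the other 4. These genes were picked after their values were seen, and the differences between libraries were not tested.

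**Figure D4:**
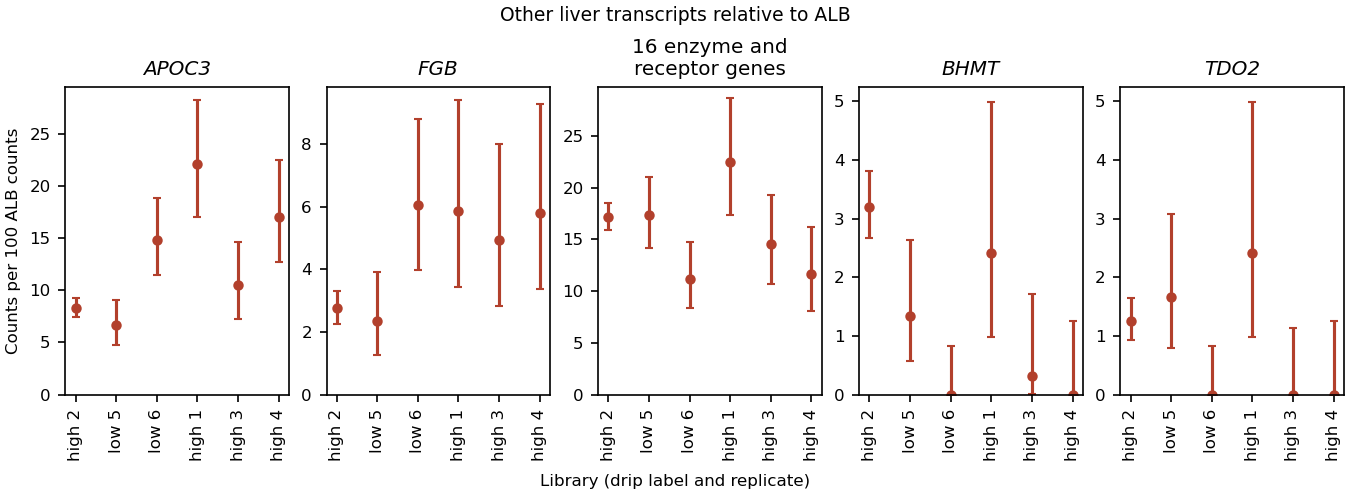
Counts per 100 ALB counts in the 6 ALB-carrying libraries for APOC3, FGB, the sum of 16 enzyme and receptor genes, BHMT and TDO2, with exact 95% Poisson intervals that cover counting error only; libraries are in order of falling ALB and each panel has its own axis. The enzyme sum lies between 11.2 and 22.5 throughout, while BHMT and TDO2 are at 0 counts in low drip replicate 6 and high drip replicate 4.

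Among features with a symbol, those most like the 10 genes were the ones whose log2 ratio to the summed 10 genes varied least over the 6 ALB-carrying libraries. Among 7110 candidates with at least 5 counts in each of these libraries, the SD of this ratio had a median of 1.37. SERPINC1 was the most alike (SD 0.16), followed by HSD17B11, a steroid and retinoid dehydrogenase (0.31), CFB, complement factor B (0.46), PLG (0.47), ITIH1 (0.55), CAMKK1 (0.60), FGB (0.62), the amino acid transporter SLC38A4 (0.71), F2 (0.71) and RBP4 (0.76). The next feature had 0.77, so the end of the list is not sharp. Of the 10, 7 are in the liver lists, which were chosen with earlier results of these data known. The share of all candidates in those lists was not counted, so nothing is read from the 7. CAMKK1, with 10.16 to 63.8 CPM in the ALB-carrying libraries and 6.61 to 39.5 CPM in the others, and SLC38A4, with 13.4 to 60.9 CPM and 12.3 to 36.8 CPM, were also present in libraries with ALB at or below 10 CPM. The ranking leans on high drip replicate 2, since the SD of the summed 10 genes themselves was 1.48 and that library alone lies far from the rest. Within the 10, each set against the sum of the other 9, ALB had the smallest SD (0.16) and APOC3 the largest (0.70).

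Some of the 10 genes are neighbours in RefSeq's order of assembly Sscrofa11.1, which is a later build than the Sscrofa10.2 of the files and was used for order only. AHSG and HRG have 1 gene between them, FETUB, and KNG1 follows HRG. FETUB had 16 counts in high drip replicate 2, 1 to 6 in the other ALB-carrying libraries and 1 count in all in the others, and KNG1 had 25 and 0 to 5 against 1 count in all. GC and ALB are 4 genes apart, FGG stands next to FGA, and APOC3 stands between APOA4 and APOA1.

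By label, the ALB-carrying libraries came from 3 of 3 high drip females and 0 of 3 low drip females, and from 1 of 3 high drip males and 2 of 3 low drip males. With tables as recorded they came from 2 of 3 high drip females and 1 of 3 low drip females, with the males unchanged. In the 9 animals whose tables carry no conflict they came from 2 of 2 high drip females, 0 of 1 low drip female, 1 of 3 high drip males and 2 of 3 low drip males. Under each of these 3 assignments every drip level and each sex held libraries of both kinds.

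**Figure D5:**
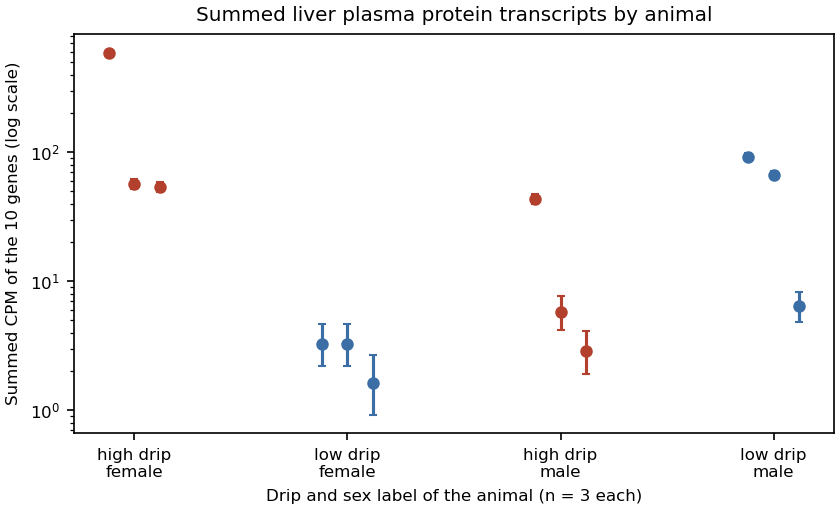
Summed CPM of the 10 genes (log scale) in each animal by drip and sex label, tables taken by number, with exact 95% binomial intervals for counting error. The 3 high drip females lie between 53.8 and 585 CPM and the 3 low drip females between 1.64 and 3.25 CPM, while high and low drip males overlap.

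The drip comparison asked whether the 10 genes differed between high and low drip animals, a contrast that the choice of genes did not use. ALB averaged 67.7 ± 123 CPM over high drip animals, against 16.7 ± 24.4 CPM over low drip animals (SD, n = 6 each), and the medians were 28.2 CPM for high drip and 2.004 CPM for low drip. The SD exceeded the mean in both groups, and the 2 groups overlapped, with 5 of the 6 high drip animals below the highest low drip animal. With sex as a term, edgeR's quasi-likelihood test gave a log2 fold of 1.94 ± 2.04 (SE), high minus low drip, for ALB (Benjamini-Hochberg adjusted p = 0.999). TF averaged 16.9 ± 35.0 CPM over high drip animals, against 3.35 ± 4.69 CPM over low drip animals, with a log2 fold of 1.59 ± 1.61. HPX averaged 4.81 ± 6.99 CPM over high drip animals, against 1.41 ± 0.970 CPM over low drip animals, with a log2 fold of 1.38 ± 0.72 (edgeR adjusted p = 0.999), the fold that was largest against its SE. Folds of all 10 genes were positive, with a median of 1.70 against 0.00 over all 10411 features tested, and 0 of 10 passed the threshold of 0.05 on the adjusted p (0% of all features, with 3.54% at an unadjusted p under 0.05). The 10 genes rise together in the same libraries, so a shared sign is not 10 observations. Without high drip replicate 2 the folds ran from 0.10 (TF) to 1.03 (HRG), with ALB at 0.91. Other animals moved the ALB fold too. It was 0.63, 0.61 and 0.62 without low drip replicate 1, 2 or 3, all female. It was 3.21, 3.46 and 3.50 without high drip replicate 4, 5 or 6, all male. With tables as recorded the folds were negative for all 10, at -2.01 for ALB and -2.78 for TF. In the 9 animals without a conflict ALB had -0.72. The direction of the drip difference thus rests on which animal 3 tables belong to. Taken by number, 737 to 745 of the 770 region counts were identical in each animal, against 123 to 136 for the recorded tables of the 3 females. The region counts thus match the assignment by number.

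The sexes were compared with drip as a term. ALB averaged 20.9 ± 23.2 CPM in males and 63.5 ± 125 CPM in females (SD, n = 6 each), and HPX 1.63 ± 0.801 CPM in males and 4.60 ± 7.13 CPM in females. None of the 10 genes passed in edgeR, where 0 of 10411 features (0%) did and 679 (6.52%) had an unadjusted p under 0.05. DESeq2 called 2 features (0.0192%). The adjusted p was 0.803 for HPX, the lowest of the 10, and 0.996 for ALB.

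A product term tested whether sex changed the contrast of high with low drip. ALB averaged 126 ± 165 CPM in high drip females and 0.866 ± 0.602 CPM in low drip females, but 9.34 ± 14.1 CPM in high drip males and 32.5 ± 27.2 CPM in low drip males (SD, n = 3 each). TF followed with 32.5 ± 48.3 CPM and 0.253 ± 0.165 CPM in females and 1.29 ± 1.08 CPM and 6.45 ± 5.13 CPM in males. High drip was thus the higher group in females for both genes and the lower group in males by the mean. The interaction, high minus low drip in males less that in females, was -8.91 ± 2.04 on the log2 scale for ALB, -9.23 ± 1.92 for TF and -3.41 ± 1.11 for HPX. All 10 genes had an unadjusted p under 0.05, against 3.49% of the 10627 features tested, and 0 of 10 and 0 of 10627 (0%) passed after adjustment (adjusted p = 1.00 in edgeR). The 10 genes rise together in the same libraries, so their p-values are not 10 observations, and nothing is read from their count. DESeq2 called 7 features (0.0659%), among them ALB (adjusted p = 0.0304), TF (0.00515) and FGG (0.0300). In low drip females TF had 1 to 4 counts per library and the genes other than ALB, TF and HPX had 0 to 3, so the size of these interactions depends on the prior count. Without high drip replicate 2 the value for ALB was -6.98, and with tables as recorded it was 0.49 for ALB, 0.83 for TF and 1.13 for HPX. The interaction therefore also depends on the assignment of the 3 female tables, where the region counts match the tables by number. With 3 animals per sex and drip level, a sex difference in the drip contrast and the chance placing of ALB-carrying libraries cannot be told apart.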

How the data were processed

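Muscle RNA of 12 pigs was extracted with Trizol, treated with DNase and, at an RNA integrity number over 8.0, made into TruSeq v2 libraries, per the labels. The submitters' processing notes name TopHat2 2.0.3, Bowtie 0.12.7.0, HTSeq and the build Sscrofa10.2. The strand setting, annotation release and treatment of ambiguous reads are not given in the sources used here. The authors deposited raw counts per gene, with 1 table for the whole annotation and another for selected chromosomal regions per animal. Unassigned reads (no feature) were 28.6 to 34.3% and stayed out of totals.

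Symbols came from a table of gene IDs, which named 10349 of 20300 Ensembl genes; 441 further features carry HSMMG identifiers. CPM is counts scaled to a common total over all features of the table. Tests ran over all features in edgeR 4.0.16 under R 4.3.3, on counts as deposited (filterByExpr with TMM factors, then a two-sided quasi-likelihood test with Benjamini-Hochberg adjustment over all tested features and a threshold of 0.05). The drip fit held sex, the sex fit drip, and the interaction fit both with their product. The SE given with an edgeR fold was worked back from the test. It is the size of the fold over the square root of its quasi-likelihood F value. Alternatives were edgeR with RLE size factors, no filter, DESeq2 1.42.0, limma 3.58.1 (voom), tables as recorded, 9 animals only, age as a term, drip or sex as the only term, and each animal left out. Only the main edgeR fits for drip, sex and the interaction were first checked, on simulated counts with changes of known size. Of 1.5-fold changes, 34% were recovered for drip, 26% for sex and 0% for the interaction. At 2-fold the figures were 68%, 80% and 12.2%, and at 4-fold 100%, 100% and 71.4%. Each sample has its own number, sex and age in the labels and was taken as 1 animal, and replicate numbers pair no animals.

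The 10 genes and the lists were chosen with earlier results of these data known. Of each list, up to 4 genes with the highest mean CPM in ALB-carrying libraries were named, with the 10 features with a symbol most like the 10 genes. Others named were chosen after their values were seen. Promoter, protein and transcript sequences and lengths were not used here.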

Additional observations from a re-analysis of the deposited data

Results flagged for a closer look

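High drip replicate 2 stood apart from the other 5 high drip libraries for each of the 10 genes. The gap to the next library was 0.9035 of the whole range for ALB, 0.9385 for TF, 0.9196 for AHSG, 0.894 for FGG, 0.7397 for APOC3, 0.8883 for HRG, 0.9165 for HPX, 0.8673 for AMBP, 0.9184 for TTR and 0.8923 for GC, each above the critical value of Dixon's test for 6 samples. These 10 flags come from 1 library and from genes that rise together, so they are 1 observation. Low drip replicate 5 stood apart from the other low drip libraries for GC, with a gap of 0.7413 of the range, on 22 counts against 6 in the next. Chance marks about 1 in 20 groups of normally distributed values, and 20 groups were looked at. The CPM here are skewed, with an SD above the mean for ALB at both drip levels, so that rate need not hold. The genes were also chosen by their counts in these libraries, so the flags are a description only.

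High drip replicate 2 is also 1 of the 3 animals whose recorded whole-genome table bears another number. In the region tables, which the comparisons do not use, CYP2E1 had 51 counts in this animal, equal to its count in the table of the same number. The table recorded for this animal has 0 counts of CYP2E1, and the table recorded for low drip replicate 1 has 51.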

How the results depend on the processing

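No paired analysis was possible because the labels carry no replicate numbers that the groups share. In the drip difference, 0 features were called in all 8 other settings (edgeR, DESeq2 and voom) and in all 12 edgeR fits that left out 1 animal, where 297 to 659 features had an unadjusted p under 0.05. The folds kept their sign in these fits except with other tables, and HRG, TTR and GC did not pass the filter in the fit with drip alone. With tables as recorded they were ALB -2.01, TF -2.78, AHSG -2.56, FGG -1.70, APOC3 -1.18, HRG -2.08, HPX -1.02, AMBP -1.89, TTR -2.14 and GC -2.07. In the 9 animals without a conflict they were ALB -0.72, TF -1.10, AHSG -1.09, FGG -0.16, HRG -0.066, AMBP -0.31, TTR -0.31 and GC -0.34, with APOC3 at 0.03 and HPX at 0.07. The interaction with tables as recorded was ALB 0.49, TF 0.83, AHSG 0.036, FGG 1.27, APOC3 0.31, HPX 1.13, AMBP 0.51, TTR 1.72 and GC 0.54, and in the 9 animals it stayed negative. HRG was left out of these interaction values, because low drip females had 0 counts of it with tables taken by number. DESeq2 called 7 features for the interaction and 2 for sex, and 1 was called for sex with no filter; edgeR called 0 for both in each fit without 1 animal. The cause of these differences between tools was not tested. ALB exceeded 5 and 20 CPM in 6 libraries and 50 CPM in 2. Its share of 10-gene counts was 55.5% with the ALB-carrying libraries pooled. With TMM factors the background median was 3.15 CPM. High drip replicate 3 summed to 61.1 CPM with TMM factors, against 53.8 CPM. Order per coding length and promoter motifs were not run, for want of lengths and sequences here. Among the low libraries, with 3 to 23 ALB counts, counting intervals of neighbours in order overlap. Some libraries further apart were separated, such as low drip replicate 4 (1.58 to 3.74 CPM) from low drip replicate 2 (0.304 to 1.56 CPM).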
